A study of Mus musculus with 8 samples.

Results

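Cd209a MHC class II dendritic-like cells of the injured mouse sciatic nerve were taken as the cell barcodes of the 2 libraries from 1 week after surgery with at least 500 detected genes, under 10% of unique molecular identifiers (UMIs, each counting 1 captured RNA molecule) from mitochondrial genes, at least 2 UMIs of Cd209a, at least 50 UMIs of H2-Aa, H2-Eb1 and Cd74 together, and no UMI of Ccr7 or Fscn1. The filters on genes and mitochondrial UMIs kept 3541 of 4391 barcodes, and 462 of those kept met the whole rule, 121 in the PSNL library and 341 in the crush library. The measured levels of 6 genes thus chose the cells, and their levels are given only as a description. The same rule found 274 cells in the 2 libraries from 15 weeks after surgery, for which it had not been set.

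Dendritic cells take up antigen, cut it into peptides and show these on MHC class II molecules to CD4+ T cells. Cd209a encodes a mouse C-type lectin of the DC-SIGN family, a receptor for sugars that is found on type 2 dendritic cells and on dendritic-like cells that arise from monocytes in inflamed tissue. In peripheral nerve much of the MHC class II is borne by macrophages, which share many genes with dendritic cells. Ccr7 and Fscn1 mark the migratory state in which dendritic cells leave a tissue for the lymph node, so the rule kept cells without that state.

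Male (M) and female (F) C57BL/6JolaHsd mice, bought at 7 weeks of age, had partial sciatic nerve ligation (PSNL), in which part of the nerve is tied off with a suture, a forceps crush of the whole nerve, or a sham operation that exposed the nerve without touching it. Single myeloid cells of the left nerve were sorted as CD45+ CD11b+ after perfusion and enzyme digestion at 37 °C, and each sample was marked with a hashtag antibody before pooling into droplet libraries; according to the methods of the study, Ly6G+ neutrophils were sorted out at the early time. At 1 week the PSNL library held PSNL F, PSNL M and sham F, and the crush library held crush F, crush M and sham M, so that the type of injury and the library cannot be told apart, and each library had a sham of 1 sex. At 15 weeks the hashtag samples were PSNL F1, F2, M1 and M2 and crush F1, F2 and M1, without a sham. A hashtag sample was the replicate throughout. The labels do not say how many animals each hashtag held, so p-values measure the spread between these samples, which may be technical.

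The 4 libraries held 1920 to 2675 barcodes and 10107015 to 23088870 UMIs, with median depths of 5157 to 8238.5 UMIs per kept barcode. The early libraries carried more of Gm42418, a gene that overlaps a ribosomal RNA locus, at 7.23% to 18.4% of the UMIs of a sample against 1.32% to 2.34% at 15 weeks. Neutrophil-like barcodes, with at least 50 UMIs of S100a8 and S100a9 together, numbered 493 in the PSNL library and 47 in the crush library at 1 week, and 7 at 15 weeks. Libraries shared 1 to 3 barcodes per pair, and 2 cells of the rule carried such a barcode.

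At the edges of the rule the values ran on without a gap. Among barcodes that met every other part, 91 held exactly 1 UMI of Cd209a, 72 held 2, 49 held 3, 47 held 4 and 294 held 5 or more. For MHC class II, 41 barcodes had 25 to 49 UMIs, just short of the minimum, against 29 with 50 to 74 and 34 with 75 to 99, and most members had at least 100. The members had a median of 6 UMIs of Cd209a, at most 68, and a median of 270.5 UMIs of the 3 MHC class II genes, against 13 in the other kept barcodes. A UMI of Ccr7, Fscn1 or both left out 23 barcodes. The members were deeper than the others, with a median of 7198.5 UMIs against 4744, and near the MHC class II high barcodes without a UMI of Cd209a (6947), which met all other parts of the rule and serve as a reference with the same MHC class II minimum.

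A low share of barcodes of another cell type also held a UMI of Cd209a. In the PSNL library 24 of 472 neutrophil-like barcodes outside the class (5.08%, median depth 3433 UMIs) had a UMI of Cd209a, close to the 5.36% of all other kept barcodes (106 of 1979, median depth 5004 UMIs). In the crush library 1 of 41 did (2.44%, median depth 2036 UMIs), against 11.3% of all other kept barcodes (124 of 1100, median depth 4247.5 UMIs). Klrd1 had no part in the rule but is among the markers given for the class, so its values are a description only. A UMI of Klrd1 was held by 77.3% of the members, 11.4% of the other kept barcodes and 4.48% of neutrophil-like barcodes. After each cell was thinned to 3000 UMIs the shares were 58.1%, 9.06% and 2.73%.

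At 1 week the members carried a dendritic set of genes in every hashtag sample, and in both libraries. Of 3871 genes with a UMI in at least 20% of the members of both libraries, 178 (4.6%) had more than 2 times the level of the other cells in the PSNL library and 124 (3.2%) in the crush library, and 29 (0.749%) and 51 (1.32%) had under 0.5 of it. Levels are counts per 1000000 UMIs (CPM) of the summed cells of a sample. Since the rule had chosen these cells from these libraries, their contrast with other cells at 1 week is a description with no test. Klrd1, which encodes the CD94 receptor better known from natural killer cells, stood at 114 CPM in sham F, 626 in PSNL F, 738 in PSNL M, 259 in sham M, 426 in crush F and 466 in crush M. The other cells of the same samples had 0 to 75.2 CPM, so no sample overlapped. Napsa, an aspartic protease of the endosome, was even across the members, at 934 CPM in sham F, 764 in PSNL F, 857 in PSNL M, 892 in sham M, 883 in crush F and 717 in crush M, against 71.6 to 202 CPM in the other cells. Both belong to the markers given for these cells, so their levels here describe the class and do not check it.

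Receptors named for dendritic cells came next. Flt3, the receptor for the growth factor that maintains dendritic cells, had 76.2 CPM in sham F, 94.6 in PSNL F, 84.8 in PSNL M, 49.6 in sham M, 192 in crush F and 199 in crush M, against 15.3 to 64 CPM in the other cells. Clec10a, a lectin for galactose-type sugars and a marker of type 2 dendritic cells, had 381 CPM in sham F, 146 in PSNL F, 496 in PSNL M, 799 in sham M, 483 in crush F and 563 in crush M. The lowest of these, PSNL F, still lay above the highest of the other cells, 128 CPM. Cd7, a surface glycoprotein of lymphoid and some dendritic cells, ranged over 67.5 to 430.1 CPM (median 167) in the members and 0 to 20 CPM in the others, with its highest values in PSNL F and PSNL M. Kit, the receptor for stem cell factor, was at 33 to 83.5 CPM (median 54.7) in the members against 0 to 21 CPM. Bcl11a, a transcription factor needed for dendritic and lymphoid development, was at 76.2 to 232 CPM (median 213) against 10.2 to 54.9 CPM.

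The 30 genes with the highest ratio of members to others, taken in the lower of the 2 libraries, held Klrb1b, Ffar2, Ddr1, Kmo, Gpr171, Siglecg, Itgb7, Dpp4, Rtn1 and Plscr1 beside those already named. Klrb1b, an inhibitory receptor of the killer cell lectin-like family, was at 76.2 to 167 CPM (median 119.5) against 0 to 17 CPM in the others. Ffar2, a receptor for short-chain fatty acids, was at 38.1 to 124 CPM (median 63.7) against 0 to 14 CPM. Kmo, an enzyme of tryptophan breakdown, was at 105 to 204 CPM (median 145) against 14 to 35.8 CPM. Itgb7, an integrin chain of leukocytes that home to gut, reached 215 to 286 CPM (median 257) against 15.3 to 90.7 CPM. These genes kept their order against the MHC class II high cells as well: Klrb1b was higher in 6 of 6 samples and Kit in 6 of 6.

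Peptide-editing chaperones of the MHC class II pathway were among the 30 genes with the highest ratios. H2-Oa, a chain of the H2-O protein that restrains peptide exchange, had 95.3 CPM in sham F, 72.8 in PSNL F, 107 in PSNL M, 82.6 in sham M, 342 in crush F and 374 in crush M, against 8.51 to 53.3 CPM in the others. Its partner H2-Ob was at 36.4 to 142 CPM (median 102) against 0 to 31.8 CPM. Ciita, the master regulator of MHC class II transcription, was at 133 to 556 CPM (median 373) against 48.9 to 166 CPM. H2-Ab1, which the rule had not counted, was at 6439 to 9807 CPM (median 8469) against 1405 to 3914 CPM. Of the 14 measured genes of the MHC class II list that had no part in the rule, 10 were higher and 3 lower in the members in both libraries, where 31.9% of all genes with a UMI were higher and 34.0% lower in both.

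Macrophage genes were lower. Of 20 listed macrophage genes, 18 were lower and 0 higher in the members in both libraries, with a median log2 ratio of -0.81 in the PSNL library and -1.25 in the crush library, where the median of all genes was -0.04 and 0.00. Adgre1, which encodes F4/80, was at 6.28 to 49.6 CPM (median 18.8) in the members against 105 to 286 CPM in the others. Csf1r, the receptor for colony-stimulating factor 1, was at 75.3 to 209 CPM (median 138) against 231 to 757 CPM. All 15 genes of the phagocytosis and lipid list were lower in both libraries. Spp1 (osteopontin) was at 0 to 735 CPM (median 48.9) against 76.7 to 7776 CPM. Fabp5, a fatty acid binding protein, was at 35.5 to 188 CPM (median 122) against 338 to 1510 CPM.

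Markers of other dendritic lineages were mixed. Of 11 genes of the type 1 dendritic list 1 was higher and 5 lower in both libraries, with a median log2 ratio of 0.12 in the PSNL library and -0.95 in the crush library, and of 5 plasmacytoid genes with a UMI 3 were higher and 1 lower. Xcr1, the chemokine receptor of type 1 dendritic cells, was at 0 to 2.67 CPM (median 0). Clec9a, their receptor for dead cells, was at 0 to 15.7 CPM (median 0.929). A UMI of Xcr1 was found in 1.30% of the members (median depth 7198 UMIs), close to the 1.17% of neutrophil-like barcodes (median depth 2962 UMIs), against 6.46% of the MHC class II high cells. After thinning the shares were 0.471%, 0.781% and 3.49%. Irf8, the transcription factor of type 1 dendritic cells, was at 0 to 87.9 CPM (median 39.6) against 113 to 362 CPM in the others. Siglech of plasmacytoid dendritic cells was at 0 to 47.1 CPM (median 4.32). The plasmacytoid list summed to 324 to 958.7 CPM in the members and 348 to 1571 CPM in the others, of which Tcf4, the transcription factor of plasmacytoid cells, held 127 to 229 CPM (median 206) in the members. Some general dendritic genes did not set the members apart: Itgax (CD11c) was higher than in the others in 5 of 6 samples at 50.2 to 166 CPM (median 102), Cd86 in 4 of 6, and Sirpa, listed for type 2 dendritic cells, in 1 of 6. Of the 24 genes of the type 2 and monocyte-derived list with a UMI in both libraries, none of them a gene of the rule, 18 were higher and 3 lower in both. Zbtb46, a transcription factor kept to conventional dendritic cells among myeloid cells, stood at 19.1 CPM in sham F, 0 in PSNL F, 25.1 in PSNL M, 27.5 in sham M, 44.6 in crush F and 41.8 in crush M, against 0 to 17.2 CPM in the others.

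Markers of monocytes were present in the members, and those of several other cell types were low. The monocyte list summed to 1080 to 3403 CPM in the members against 1806 to 4635 CPM in the others, and Ccr2, the monocyte chemokine receptor, was at 416 to 593 CPM (median 459) in the members. Mast cell, basophil and red cell markers were at 0 in every sample. The T or NK cell list summed to 0 to 62.2 CPM, with Cd3e, Cd3g, Trbc2 and Trac at 0, although Klrd1 itself also belongs to NK cells. The B cell list summed to 80.0 to 164 CPM with Pax5 at 0, and the nerve and stromal list to 38.1 to 100.4 CPM with S100b and Sox10 at 0. Neutrophil markers summed to 16.5 to 1834 CPM, highest in PSNL F. Of the members, 27 also met the neutrophil minimum, 21 of them in the PSNL library.

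**Figure D1:**
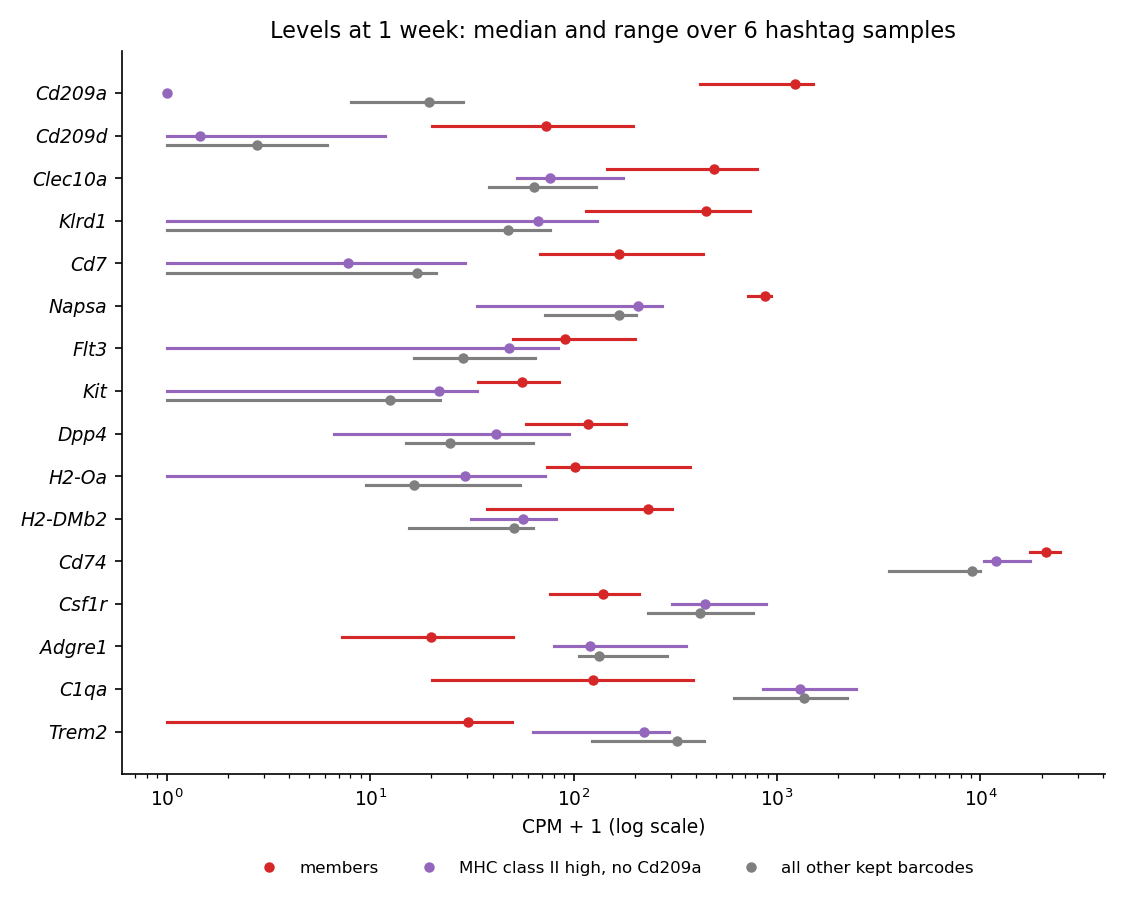
Levels of named genes 1 week after surgery in CPM plus 1 on a log axis, with the median (point) and the range (line) over the 6 hashtag samples for members (red), MHC class II high cells without Cd209a (purple) and other kept cells (grey). Klrd1 of the members spans 114 to 738 CPM, above the 0 to 75.2 CPM of the other cells, while Adgre1 of the members, 6.28 to 49.6 CPM, lies below the others.

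Against the MHC class II high cells, which shared the MHC class II minimum (median 119 UMIs) but had no UMI of Cd209a, the picture at 1 week was alike. In these cells Klrd1 was at 0 to 130 CPM (median 66.2), Bcl11a at 0 to 58.9 CPM (median 36.7) and Itgb7 at 0 to 120.5 CPM (median 76.5), each below the members in 6 of 6 samples. The MHC class II high cells were rich in macrophage genes. Their macrophage list summed to a median of 15960 CPM, near the 17410 CPM of all other cells and far from the 3362 CPM of the members. Trem2, a lipid receptor of macrophages, was at 62.3 to 292 CPM (median 221) in the MHC class II high cells against 0 to 48.9 CPM (median 29.2) in the members. Cx3cr1, the fractalkine receptor, was at 108 to 449.8 CPM (median 245) against 0 to 138 CPM (median 93.1). Cd209a itself, a gene of the rule, varied among the members from 2 UMIs up. In the PSNL library Klrd1 was at 233 CPM in the 52 members with 2 to 4 UMIs of Cd209a, 353 CPM in the 31 with 5 to 9 and 519 CPM in the 38 with at least 10. In the crush library the values were 328, 329 and 417 CPM in 116, 111 and 114 members, whose median depth rose from 5444 to 8700 UMIs, so that Klrd1 was level between the lower classes there. The members with 2 to 4 UMIs also held more C1qa and S100a8 than those with at least 10, at 614 against 175 CPM and 2740 against 718 CPM in the PSNL library and at 646 against 479 CPM and 374 against 244 CPM in the crush library. Neither gene fell steadily in the crush library, where members with 5 to 9 UMIs had 712 CPM of C1qa and 1.13 CPM of S100a8.

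The members differed among themselves in macrophage genes. C1qa, C1qb and C1qc, which encode the complement component C1q and mark macrophages, were at 0 UMIs together in 72 of the 121 members of the PSNL library (59.5%) and in 213 of the 341 of the crush library (62.5%). At the other end, 24 (19.8%) and 76 (22.3%) had 10 or more C1q UMIs. In the crush library Klrd1 was at 514 CPM in the cells without C1q, 387 CPM with 1 to 9 UMIs and 163 CPM with 10 or more, while Csf1r was at 57.0, 134 and 404 CPM. In the PSNL library the same classes had 568, 485 and 59.0 CPM of Klrd1. Cells with much C1q thus held less of the dendritic marker and more of the macrophage receptor.

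The same cells carried several hashtags far more often. In the PSNL library 91.7% of the members with 10 or more C1q UMIs had several hashtags above their thresholds, against 11.1% of those without C1q, and in the crush library 68.4% against 7.98%. Their median depth was 18290 and 12540 UMIs, against 6661 and 6049 without C1q, and 45.8% and 28.9% lay in the top 6% of doublet scores. At 15 weeks, where few barcodes had several hashtags, 22.7% and 16.1% of the cells with 10 or more C1q UMIs did, against 2.08% and 0% of those without, and Klrd1 was again lower in them, at 50.9 and 18.6 CPM against 224 and 163 CPM. The share of these cells that are 2 cells in 1 droplet was not tested beyond these values. Only barcodes with exactly 1 hashtag, 326 of the 462 members, entered any comparison between samples, and among those 26 held 10 or more C1q UMIs. For genes of macrophages, values without these cells are given below.

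**Figure D2:**
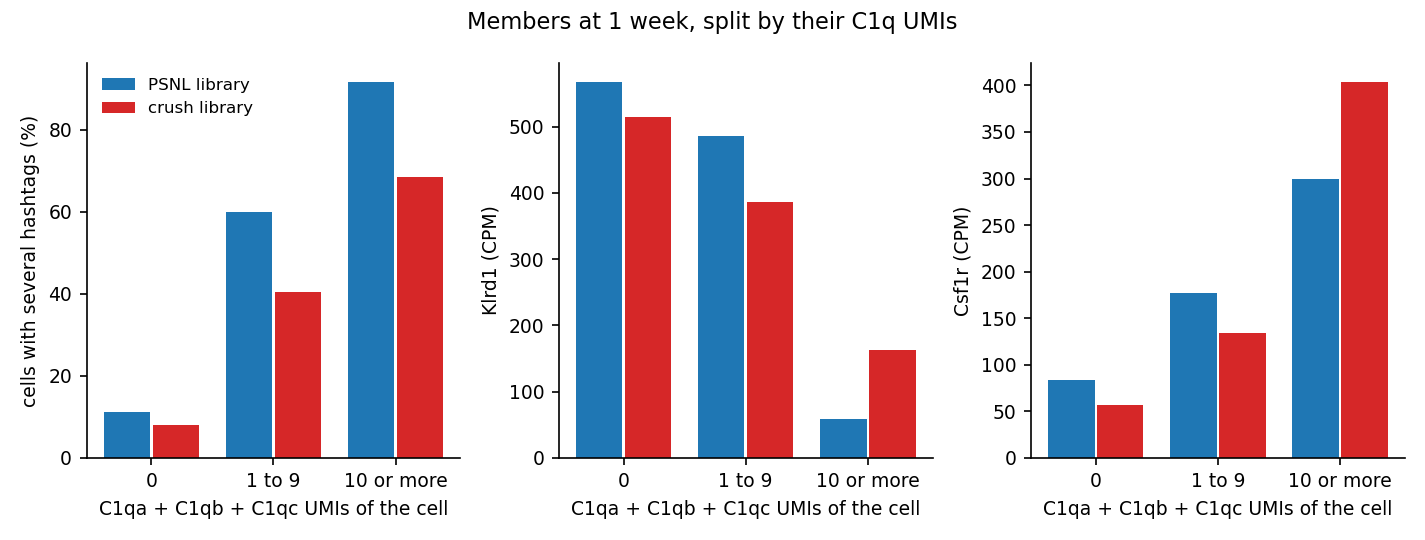
Members of the 1-week PSNL (blue) and crush (red) libraries by their C1q UMIs (0, 1 to 9, 10 or more), as the percentage of cells with several hashtags and the CPM of Klrd1 and Csf1r; bars start at 0. From the class without C1q to that with 10 or more, the percentage with several hashtags goes from 11.1% to 91.7% (PSNL) and from 7.98% to 68.4% (crush), as Klrd1 goes from 568 to 59.0 CPM and from 514 to 163 CPM.

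At 1 week the cells made up a larger share of the sorted myeloid cells in both crush samples than in both PSNL samples. They were 65 of 332 kept cells in crush F (19.6%, exact binomial 95% interval 15.4 to 24.3%) and 168 of 607 in crush M (27.7%, 24.2 to 31.4%). In PSNL F they were 24 of 532 (4.51%, 2.91 to 6.64%) and in PSNL M 45 of 874 (5.15%, 3.78 to 6.83%). The shams lay between, with 18 of 106 in sham M of the crush library (17.0%, 10.4 to 25.5%) and 6 of 64 in sham F of the PSNL library (9.38%, 3.52 to 19.3%). These intervals cover counting error only. The crush samples did not overlap with the PSNL samples, and each library's sham lay nearer to that library's injured samples than the injured samples of the 2 libraries lay to each other.

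As means over samples the share was 23.6% ± 5.73 (SD, n = 2) after crush, 13.2% ± 5.38 (n = 2) after sham and 4.83% ± 0.451 (n = 2) after PSNL. The differences were 10.4 percentage points for crush against sham, -8.35 for PSNL against sham and -18.8 for PSNL against crush, each with p = 0.33 in a two-sided exact permutation test, the smallest p that 2 samples against 2 allow. The sham mean joins the shams of both libraries, so the differences against sham also hold any difference between the libraries. Neutrophil-like barcodes differed between the samples as well, at 25.6% of PSNL F and 14.1% of PSNL M but 1.81% and 2.80% of the crush samples. With those barcodes left out the mean share of members was 24.1% after crush, 13.9% after sham and 5.90% after PSNL. Taken over all cells with the MHC class II minimum and no Ccr7 or Fscn1, members were 25.8% in PSNL F and 23.7% in PSNL M. They were 34.8% in crush F, 47.3% in crush M, 20% in sham F and 43.9% in sham M. On that base the order of the injuries was kept, and sham M again lay beside the crush samples of its own library.

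Thinned to 3000 UMIs per cell, the shares were 3.99% and 5.31% in PSNL F and M, 15.4% and 26.8% in crush F and M, 2.86% (1 of 35 cells) in sham F and 22.6% (14 of 62) in sham M. Sham F then lay below both PSNL samples, and sham M between the crush samples. The level of Cd209a over all kept cells of a sample, which needs no threshold on cells, was 92.1 CPM in PSNL F, 113 in PSNL M, 244 in crush F, 486 in crush M, 96.8 in sham F and 377 in sham M. Crush samples again lay above PSNL samples without overlap, by 263 CPM on average (exact permutation p = 0.33).

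At 15 weeks the rule found 5.54%, 8.90%, 7.87% and 6.91% of the kept cells in PSNL F1, F2, M1 and M2, and 9.61%, 5% and 4.05% in crush F1, F2 and M1. PSNL and crush overlapped there (mean difference 1.08 percentage points, exact permutation p = 0.571). Injured samples had 14.2% ± 11.3 (SD, n = 4) at 1 week and 6.84% ± 2.08 (n = 7) at 15 weeks, a difference of 7.39 points with p = 0.188 (exact permutation test, smallest possible p 0.00606). Within crush the share was 17.4 points higher at 1 week than at 15 weeks (exact permutation p = 0.2), and within PSNL 2.47 points lower (exact permutation p = 0.133); these are the smallest p-values that the 2 samples against 3 and against 4 allow. The times differ also in batch, depth and sort, which cannot be told apart from time. Of all cells with the MHC class II minimum and no Ccr7 or Fscn1, 5.39% to 16.1% met the rule at 15 weeks.

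**Figure D3:**
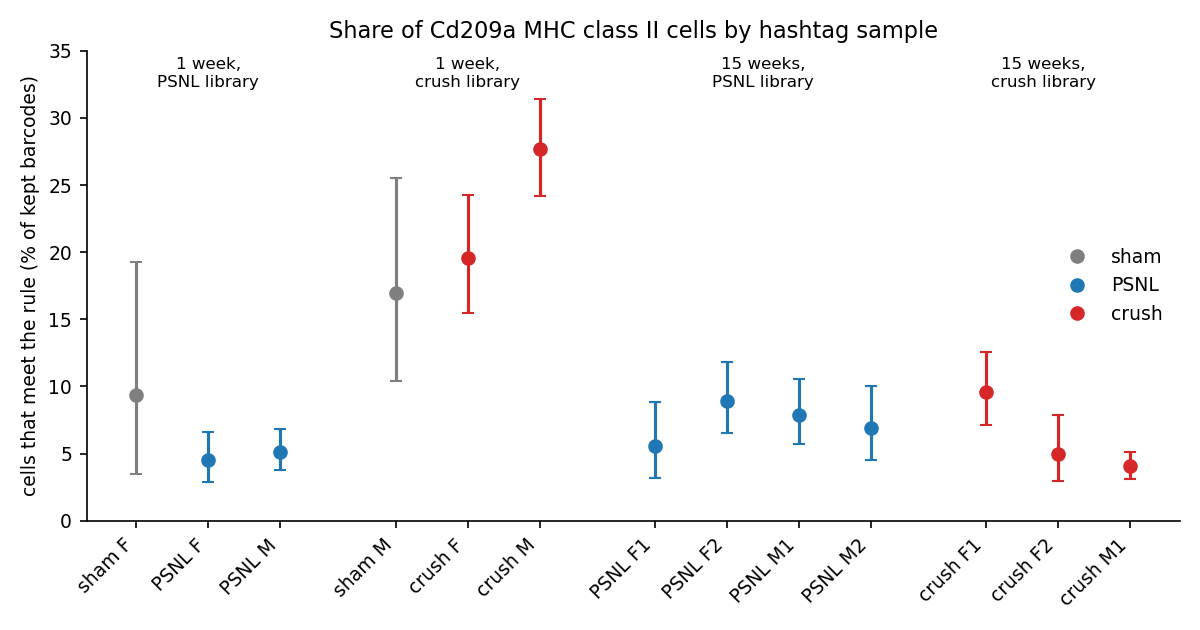
Share of kept cells that met the rule in each hashtag sample, in percent, with exact binomial 95% intervals (counting error only), at 1 and 15 weeks. The crush samples at 1 week, 19.6% and 27.7%, lie above the PSNL samples, 4.51% and 5.15%, while the 7 samples at 15 weeks lie between 4.05% and 9.61%.

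The 15-week libraries allowed a test of what sets these cells apart, since the rule had been set for the 1-week libraries. The cells were still split by their own counts of the genes of the rule. Members and gene lists were chosen with earlier results of these data known, and Klrd1 and Napsa are markers given for the class. Counts by list below are thus a description and no independent check. For each of the 7 hashtag samples the counts of the cells of the rule with exactly 1 hashtag (16 to 63 per sample) and of the MHC class II high cells without Cd209a were summed, and the sums were tested in edgeR (quasi-likelihood) with the sample as a block and Benjamini-Hochberg adjustment. Of 9792 genes, 1418 were higher and 1217 lower at an adjusted p under 0.05 (26.9% of all genes tested, 14.5% higher and 12.4% lower). Against all other kept cells, 1658 of 10421 were higher and 1582 lower (31.1%, 15.9% and 15.2%). At 15 weeks too the MHC class II high cells were rich in macrophage genes. Their macrophage list summed to a median of 39970 CPM, against 48390 CPM in all other cells and 10530 CPM in the cells of the rule. The cells of the rule were the deeper ones, with median depths of 9194 to 14420 UMIs per sample against 6352 to 9344 in all kept cells. Values below are the lowest, median and highest of the 7 samples, first in the cells of the rule and then in the MHC class II high cells. Log2 differences are given with their SE.

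Several lectin and dendritic receptors seen at 1 week passed the test at 15 weeks, but Kit and Ffar2 were at or near 0. Klrd1 was at 90.8, 186 and 207 CPM against 0.699, 3.19 and 8.96 CPM, a log2 difference of 5.35 ± 0.26, adjusted p = 1.3e-09 and higher in 7 of 7 samples without overlap. Flt3 was at 86.1, 135 and 227 CPM against 4.19, 12.8 and 26.5 CPM (3.54 ± 0.32, adjusted p = 8.3e-07). Clec10a was at 180.4, 400 and 685 CPM against 21.8, 88.5 and 106 CPM (2.62 ± 0.26, adjusted p = 1.6e-06). Cd7 rose by 6.89 ± 0.51, adjusted p = 1.1e-07, from a level near 0. Dpp4, a surface peptidase also known as CD26, was at 67.8, 139 and 202 CPM against 4.89, 7.66 and 14.5 CPM (4.07 ± 0.25, adjusted p = 1.6e-08). Il1r2, the decoy receptor for interleukin 1, was at 53.7, 93.9 and 120.3 CPM against 0.874, 1.78 and 14.1 CPM (5.00 ± 0.37, adjusted p = 1.1e-07). Of the 21 tested genes of the type 2 and monocyte-derived dendritic list, 18 were higher and 1, Sirpa, was lower, with a median log2 difference of 2.62 where that of all genes was -0.03. Kit, high in the members at 1 week, was near 0 in both classes at 15 weeks, at 0, 0 and 8.79 CPM against 0, 1.04 and 2.13 CPM. Ffar2 was at 0 CPM in the cells of the rule in all 7 samples.

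Transcription factors moved in both directions. Zbtb46 was at 82.7, 106 and 131 CPM against 3.67, 7.25 and 20.3 CPM (3.75 ± 0.26, adjusted p = 4.2e-08). Irf4, needed for type 2 dendritic cells, was at 81.3, 101 and 163 CPM against 7.08, 30 and 40.1 CPM (2.08 ± 0.25, adjusted p = 1.1e-05). Klf4, another factor of type 2 dendritic cells, was at 88.1, 216 and 284 CPM against 15.8, 41.5 and 97.3 CPM (2.28 ± 0.30, adjusted p = 2.7e-05). Irf8 went the other way, at 21.2, 52.7 and 74.6 CPM against 147, 225 and 299 CPM (-2.31 ± 0.19, adjusted p = 2.8e-07), and was lower in 7 of 7 samples. Bcl11a was at 141, 227 and 321 CPM against 5.57, 8.85 and 14.7 CPM (4.81 ± 0.22, adjusted p = 1.3e-09). Nr4a1, an orphan nuclear receptor switched on by stimulation, was at 222, 397 and 507 CPM against 19.5, 42.8 and 51.7 CPM (3.38 ± 0.22, adjusted p = 3.5e-08). Of 21 listed factors 10 were higher and 5 lower, with Irf8, Id2, Maf and Cebpa among the latter. The type 1 dendritic list was mixed, with 4 of 9 tested genes higher and 2 lower; Batf3 had 0.07 ± 0.18, adjusted p = 0.82 and did not pass.

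Neighbours of Cd209a in its gene cluster were higher too. Cd209d was at 155, 217 and 346 CPM against 2.99, 7.8 and 19.2 CPM (4.77 ± 0.24, adjusted p = 1.8e-09). Cd209c was at 37.9, 47.5 and 71.4 CPM against 0, 0.638 and 1.78 CPM (6.29 ± 0.42, adjusted p = 3.9e-08), and both were higher in 7 of 7 samples. Cd209b and Cd209f also passed, at 2.95 ± 0.76, adjusted p = 0.008 and 2.45 ± 0.51, adjusted p = 0.0017, while Cd209g had 1.85 ± 0.67, adjusted p = 0.052 and did not. At 1 week Cd209d had already been at 19.1 to 195 CPM (median 71.9) in the members and 0 to 5.12 CPM in the other cells. These lectins are close copies of each other, so reads of Cd209a may have been counted for a neighbour, and the share of such reads was not tested. The promoters of the 7 genes lie within 385.9 kb of mouse chromosome 8 (GRCm38). Printed here from RefSeq (GRCm38.p6) are the promoters of Cd209d and of Cd209a, whose own rise was fixed by the rule. Each runs from 250 bases before to 50 bases after the start of the gene on its own strand. Capitals mark AGGAAG and its reverse complement CTTCCT, the core bound by ETS factors such as PU.1 of myeloid cells.
Cd209a, chr8:3748935-3749234, minus strand: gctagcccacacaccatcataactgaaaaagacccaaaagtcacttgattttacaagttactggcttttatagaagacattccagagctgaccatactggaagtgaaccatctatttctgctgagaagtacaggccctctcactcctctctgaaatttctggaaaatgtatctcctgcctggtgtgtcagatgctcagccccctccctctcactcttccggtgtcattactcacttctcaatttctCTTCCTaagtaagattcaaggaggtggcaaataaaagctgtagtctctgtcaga
Cd209d, chr8:3878450-3878749, minus strand: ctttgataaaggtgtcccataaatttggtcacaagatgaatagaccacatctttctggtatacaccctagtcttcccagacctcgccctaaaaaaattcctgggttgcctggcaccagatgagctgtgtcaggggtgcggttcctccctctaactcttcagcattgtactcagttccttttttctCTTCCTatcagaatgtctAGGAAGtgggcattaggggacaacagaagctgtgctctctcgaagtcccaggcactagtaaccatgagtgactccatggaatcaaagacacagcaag
The Cd209a promoter held 1 match and that of Cd209d 2. The promoters of Cd209e and Cd209b held 2 and 3, and those of Cd209c, Cd209f and Cd209g held 0, so that 4 of the 7 had a match where 35.4% of 32851 promoters of the same length had. A match describes the letters in this window and nothing about what binds there.

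In the MHC class II pathway, 13 tested genes had no part in the rule, of which 7 were higher and 2 lower. H2-Oa was at 18.3, 58.3 and 93.5 CPM against 1.49, 3.64 and 9.59 CPM (3.99 ± 0.36, adjusted p = 8e-07). H2-Ob was at 20.3, 62.6 and 74.7 CPM against 5.59, 14 and 16.7 CPM (2.34 ± 0.27, adjusted p = 7.7e-06). H2-DMb2, a chain of the peptide loading catalyst H2-DM, was at 0, 66.5 and 108 CPM against 2.97, 15.6 and 30.7 CPM (2.24 ± 0.37, adjusted p = 0.00025). The other H2-DM chains, H2-DMa (0.46 ± 0.11, adjusted p = 0.0063) and H2-DMb1 (0.52 ± 0.12, adjusted p = 0.0053), passed as well. H2-Ab1 differed by less, 5275, 7062 and 7860 CPM against 4704, 5513 and 6622 CPM (0.36 ± 0.12, adjusted p = 0.029, higher in 6 of 7 samples), as did Ciita (0.45 ± 0.14, adjusted p = 0.028). The 2 lower genes were lysosomal proteases that trim antigen and the invariant chain. Ctss was at 856, 956 and 1023 CPM against 1784, 2045 and 4548 CPM (-1.17 ± 0.16, adjusted p = 4.9e-05). Lgmn was at 182, 274 and 358 CPM against 476, 649.9 and 1223 CPM (-1.30 ± 0.15, adjusted p = 8.9e-06).

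Co-stimulation and cytokine genes were higher in part. Tnfsf9, the ligand of 4-1BB on T cells, was at 81.3, 306 and 393 CPM against 7.08, 20.4 and 43.9 CPM (3.95 ± 0.38, adjusted p = 1.4e-06). Cd83, which holds MHC class II at the surface, was at 831, 1075 and 1195 CPM against 319.6, 422 and 1103 CPM (1.19 ± 0.19, adjusted p = 0.00018). Cd80 and Icam1 were also higher, by 1.24 ± 0.22, adjusted p = 0.0005 and 1.16 ± 0.20, adjusted p = 0.0004. Cd86 did not pass (0.11 ± 0.17, adjusted p = 0.69), and Cd274, which encodes the inhibitory ligand PD-L1, was lower (-1.10 ± 0.36, adjusted p = 0.032). Il1b, the inflammatory cytokine interleukin 1 beta, was at 69.3, 260.1 and 374 CPM against 21.3, 54.2 and 132 CPM (1.91 ± 0.25, adjusted p = 2.5e-05). Tnf had 0.94 ± 0.29, adjusted p = 0.023 and was higher in 5 of 7 samples. Among chemokine ligands 4 of 16 were higher and 4 lower, with Ccl17, a ligand of the receptor Ccr4, measured with 0, 5.19 and 358 CPM against 0, 0 and 2.6 CPM (6.52 ± 0.56, adjusted p = 1.2e-06) and higher in only 4 of 7 samples.

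Macrophage genes were lower again, 16 of 20, with a median of -1.45. Csf1r was at 152, 365 and 434 CPM against 593, 919.9 and 1027 CPM (-1.48 ± 0.15, adjusted p = 2e-06). Adgre1 was at 158, 278 and 307 CPM against 472, 610.5 and 741 CPM (-1.24 ± 0.12, adjusted p = 1.8e-06). Trem2 was at 19.6, 68.8 and 147 CPM against 390.4, 500.1 and 1365 CPM (-2.87 ± 0.33, adjusted p = 8.1e-06). Mrc1, the mannose receptor of resident macrophages, did not differ past the threshold, at 718, 1173 and 1488 CPM against 464, 1437 and 1621 CPM (-0.15 ± 0.14, adjusted p = 0.46). Cd163, a scavenger receptor of resident macrophages, went against the list and was higher, at 99.8, 217 and 279 CPM against 16.1, 80.1 and 196 CPM (1.38 ± 0.32, adjusted p = 0.0041, 7 of 7 samples). The macrophage list summed to 3995 to 15570 CPM in the cells of the rule at 15 weeks against 750.2 to 5978 at 1 week, and 19.1% to 50% of the cells of a sample had 10 or more C1q UMIs there. Without those cells the log2 difference was -3.81 for Csf1r (adjusted p = 6.7e-10), -2.19 for Adgre1 (adjusted p = 6.3e-08), -6.77 for Trem2 (adjusted p = 1.2e-10), -6.99 for Apoe (adjusted p = 1.3e-11) and 1.48 for Cd163 (adjusted p = 0.0015), and Mrc1 then passed as lower at -1.09 (adjusted p = 0.00011). Without them 1656 genes were higher and 1746 lower, and all 30 genes named by rule for this comparison were still past the threshold, among them Cd209a, which sets the class.

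The genes for clearing debris and lipid were lower as a group: 12 of 14 fell and 0 rose, with a median of -1.79. Apoe, the lipid carrier, was at 1063, 4263 and 7653 CPM against 15090, 21990 and 50510 CPM (-2.57 ± 0.31, adjusted p = 1.1e-05). Fabp5 was at 10.4, 42.4 and 92.8 CPM against 86.8, 162 and 1242 CPM (-2.90 ± 0.35, adjusted p = 1.1e-05). Gpnmb, a glycoprotein of lipid-laden macrophages, differed by -3.24 ± 0.65, adjusted p = 0.0013. Sensors of microbial products were lower too, 8 of 15 with Nod2 alone higher. Cd14, which passes lipopolysaccharide to its receptor, was at 37.9, 68.8 and 102 CPM against 178, 240.5 and 267 CPM (-1.77 ± 0.16, adjusted p = 6.8e-07). Tlr13, a sensor of bacterial ribosomal RNA, was at 0, 6.92 and 21.5 CPM against 37, 47.9 and 66.9 CPM (-2.83 ± 0.41, adjusted p = 6.9e-05). Monocyte genes were higher in 5 of 9 cases. Ms4a4c, a membrane protein of monocytes, was at 99.8, 122 and 192 CPM against 8.33, 18.2 and 41.4 CPM (2.91 ± 0.24, adjusted p = 2.8e-07). Plac8 was also higher (2.60 ± 0.53, adjusted p = 0.0016). Ly6c2 of classical monocytes passed (2.83 ± 1.00, adjusted p = 0.047) from values of 0, 2.93 and 31.8 CPM and was higher in 4 of 7 samples. Ccr2, the monocyte chemokine receptor, did not pass (0.63 ± 0.25, adjusted p = 0.075).

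Of the immediate early and stress genes 14 of 15 were higher, with a median of 1.56. Atf3 was at 658, 929.7 and 1195 CPM against 154, 195 and 570.4 CPM (2.06 ± 0.19, adjusted p = 1.1e-06). Hspa1a, a heat shock protein, was at 807, 1820 and 2336 CPM against 295, 454 and 803 CPM (1.85 ± 0.19, adjusted p = 2.2e-06). Egr1 did not pass (0.41 ± 0.24, adjusted p = 0.24). Cell cycle genes were higher in 9 of 16 cases with none lower. Top2a, an enzyme that untangles replicated DNA, was at 6.78, 62.6 and 164 CPM against 4.27, 20.4 and 46.8 CPM (1.93 ± 0.40, adjusted p = 0.0017) but higher in only 5 of 7 samples. Mki67 had 1.60 ± 0.46, adjusted p = 0.015. Cells with a UMI of Mki67 or Top2a were 4% to 25.5% of a sample at 15 weeks, and 6.67% to 16.9% in PSNL F, PSNL M, sham M, crush F and crush M at 1 week. Of the interferon-stimulated genes 1 of 17 was higher and 0 lower, with a median of 0.03.

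**Figure D4:**
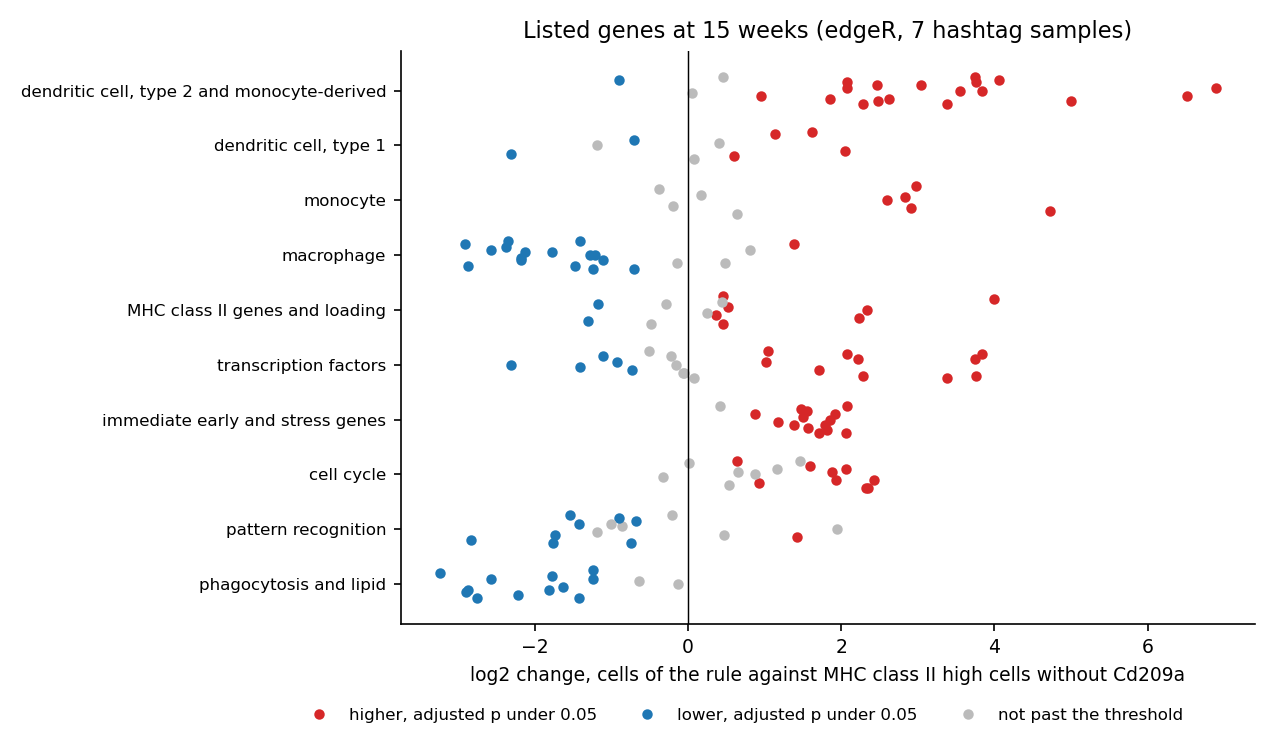
Log2 difference between cells of the rule and MHC class II high cells without Cd209a at 15 weeks for each tested gene of the lists on the vertical axis, leaving out the 6 genes of the rule; points are genes, red higher, blue lower and grey not past an adjusted p of 0.05 (edgeR). The type 2 dendritic list centres on 2.62 and the phagocytosis and lipid list on -1.79, with the macrophage list at a median of -1.45.

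Inside the cells of the rule, PSNL and crush at 1 week differed in a small set of genes. Counts of members were summed per hashtag sample, and 12 samples with at least 10 member cells entered 1 edgeR fit over both times; sham F, with 6 members, was left out of the fit and is given as a value only. Of 7853 genes, 18 were higher and 26 lower in PSNL than in crush (0.56% of genes tested, 0.229% higher and 0.331% lower). With DESeq2 size factors the split was 22 higher and 21 lower, and DESeq2 called 97 genes, 63 of them higher. Ifitm1, an interferon-induced membrane protein that restricts viral entry, was at 19.1 CPM in sham F, 5282 in PSNL F, 3356 in PSNL M, 237 in sham M, 173 in crush F and 114 in crush M, a log2 difference of 4.92 ± 0.35, adjusted p = 7.9e-07. Its neighbour Ifitm2 was at 572 CPM in sham F, 3798 in PSNL F, 3761 in PSNL M, 909 in sham M, 708 in crush F and 963 in crush M (2.18 ± 0.27, adjusted p = 0.00092). Both injured samples of the PSNL library stood far above the other samples, the sham of the same library included. The other cells differed in the same direction, by 4.29 ± 0.70, adjusted p = 0.0046 for Ifitm1 and 2.05 ± 0.23, adjusted p = 0.00064 for Ifitm2, and by 6.79 ± 0.50, adjusted p = 0.00032 for Timp1, 1.73 ± 0.17, adjusted p = 0.00031 for Tgfbi and -2.89 ± 0.79, adjusted p = 0.039 for Mgl2, which are described next. At 15 weeks Ifitm1 was at 0 to 6.92 CPM (median 3.76) in the cells of the rule. The Ifitm genes resemble each other in sequence, so reads may have been shared.

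Other genes higher in PSNL had different roles. Tgfbi, a matrix protein induced by TGF-beta, was at 286 CPM in sham F, 655 in PSNL F, 408 in PSNL M, 242 in sham M, 89.2 in crush F and 122 in crush M (2.29 ± 0.32, adjusted p = 0.0027). Timp1, the inhibitor of matrix metalloproteinases, was at 0 CPM in sham F, 160.1 in PSNL F, 163 in PSNL M, 22 in sham M, 7.43 in crush F and 0.888 in crush M (5.58 ± 0.63, adjusted p = 0.00092), with every sample but the injured PSNL samples at or under 22 CPM. Cebpb, a transcription factor of inflammatory myeloid cells, was at 57.2 CPM in sham F, 538 in PSNL F, 289 in PSNL M, 325 in sham M, 40.9 in crush F and 107 in crush M (2.38 ± 0.48, adjusted p = 0.045); sham M lay among the PSNL values there. Ctsl, a lysosomal protease, was at 38.1 CPM in sham F, 87.3 in PSNL F, 239 in PSNL M, 16.5 in sham M, 18.6 in crush F and 23.1 in crush M (3.05 ± 0.54, adjusted p = 0.018). Members of the lineage set also passed. Cd209d was at 19.1 CPM in sham F, 131 in PSNL F, 195 in PSNL M, 99.1 in sham M, 44.6 in crush F and 32 in crush M (2.19 ± 0.40, adjusted p = 0.022). Cd7 differed by 2.01 ± 0.42, adjusted p = 0.047. Lgals1, a galactose-binding lectin, was at 1772 CPM in sham F, 786 in PSNL F, 1187 in PSNL M, 1173 in sham M, 310.4 in crush F and 263 in crush M (1.82 ± 0.36, adjusted p = 0.034), and its highest value was that of sham F.

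Lower in PSNL, and so higher in crush, were several macrophage and lipid genes. Apoe was at 362 CPM in sham F, 451 in PSNL F, 65.9 in PSNL M, 1994 in sham M, 3833 in crush F and 3741 in crush M (-4.03 ± 0.73, adjusted p = 0.02). C1qa was at 19.1 CPM in sham F, 29.1 in PSNL F, 31.4 in PSNL M, 275 in sham M, 216 in crush F and 384 in crush M (-3.27 ± 0.58, adjusted p = 0.018). Mgl2, a galactose lectin of type 2 dendritic cells and macrophages, was at 800.3 CPM in sham F, 7.28 in PSNL F, 22 in PSNL M, 611 in sham M, 210 in crush F and 207 in crush M (-3.55 ± 0.55, adjusted p = 0.0058), nearly gone from the injured PSNL samples and highest in the shams. Id2, a partner factor in dendritic development, was at 57.2 CPM in sham F, 80 in PSNL F, 56.5 in PSNL M, 231 in sham M, 331 in crush F and 608 in crush M (-2.83 ± 0.46, adjusted p = 0.0077). H2-DMb2 was at 248 CPM in sham F, 36.4 in PSNL F, 40.8 in PSNL M, 220.3 in sham M, 305 in crush F and 243 in crush M (-2.76 ± 0.60, adjusted p = 0.0496). Top2a was at 0 CPM in sham F, 0 in PSNL F, 3.14 in PSNL M, 22 in sham M, 100.4 in crush F and 63.1 in crush M (-5.01 ± 1.09, adjusted p = 0.0496). Of 16 alternatives, Mgl2 passed under 14, Apoe and Id2 under 12, C1qa under 11, H2-DMb2 under 7 and Top2a under 3. For Apoe, C1qa and Id2 each sham lay nearer on a log scale to the injured samples of its own library, so that on that scale their levels went with the library. In plain CPM, Apoe of sham M lay nearer to PSNL F than to either crush sample, and Id2 of sham M nearer to PSNL F than to crush M.

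By list, 4 of 20 macrophage genes were lower in PSNL and 0 higher, with a median of -2.52 against -0.11 for all genes tested. The summed macrophage list was 750.2 to 1579 CPM in the PSNL members and 5422 to 5978 CPM in the crush members. The monocyte list went the other way, at 2743 to 3403 CPM in the PSNL members and 1080 to 2143 CPM in the crush members, and the list of RNA quality genes (Gm42418, Malat1, Neat1, mt-Co1 and mt-Nd1) summed to 46190 to 50380 and 60690 to 81700 CPM. The part of these lists in the calls was not tested. Members with 10 or more C1q UMIs were 1 of 24 in PSNL F and 1 of 45 in PSNL M, 4 of 65 in crush F and 17 of 168 in crush M. Without them C1qa had -0.13 (adjusted p = 0.99), C1qb -0.98 (adjusted p = 0.79) and C1qc -0.08 (adjusted p = 1), and Apoe had -3.54 and missed the threshold (adjusted p = 0.082), while 18 genes were higher and 14 lower, 25 of them shared with the fit on all members. The count of 44 rested on each injured sample: it was 4 without PSNL M, 13 without PSNL F, 15 without crush M and 20 without crush F. Ifitm1, Ifitm2 and Tgfbi passed under all 16 alternatives tried. Neutrophil markers summed to 50.2 to 1834 CPM in the PSNL members and 39.0 to 293 CPM in the crush members, and leaving out neutrophil-like barcodes gave 19 higher and 28 lower. Of the interferon-stimulated list 0 of 15 tested genes passed, with a median of -0.50.

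**Figure D5:**
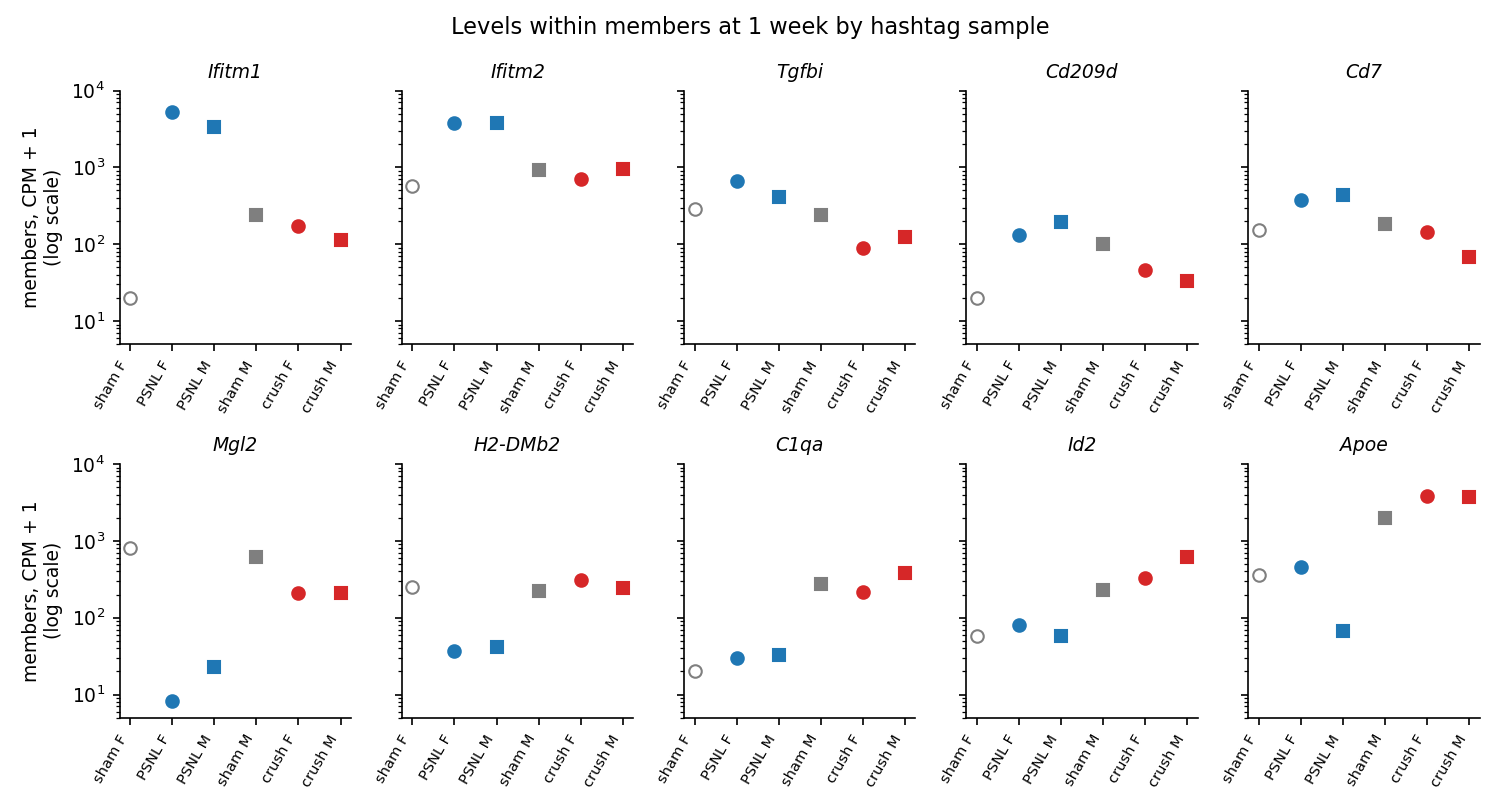
Levels within the members at 1 week, in CPM plus 1 on a log axis, for genes that differed between PSNL and crush; circles are female and squares male samples, blue PSNL, red crush and grey sham, and the open grey circle is sham F, whose 6 cells were not in the fit. Ifitm1 is at 5282 and 3356 CPM in PSNL and at 173 and 114 CPM in crush, and Mgl2 at 7.28 and 22.0 CPM in PSNL and at 210.0 and 207 CPM in crush.

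Against sham, which was sham M of the crush library alone and was assumed to vary like the other groups, few genes passed. For PSNL 2 were higher and 5 lower of 7853 (0.0891%). Without PSNL F or PSNL M 3 genes passed. Ifitm1 (4.28 ± 0.47, adjusted p = 0.00055) and Ifitm2 (2.17 ± 0.36, adjusted p = 0.019) were higher, and Mgl2 (-5.00 ± 0.59, adjusted p = 0.00072), Mrc1 (-3.76 ± 0.48, adjusted p = 0.0015), Cd163 (-6.43 ± 0.92, adjusted p = 0.0048) and Pf4, a chemokine of resident macrophages (-5.36 ± 0.84, adjusted p = 0.012), lower. Mrc1 was at 305 CPM in sham F, 65.5 in PSNL F, 28.2 in PSNL M, 617 in sham M, 186 in crush F and 139.5 in crush M. The fifth lower gene, the ribosomal protein Rpl10 (-1.57 ± 0.27, adjusted p = 0.028), was at 229 CPM in sham F, 327 in PSNL F, 345 in PSNL M, 1091 in sham M, 1128 in crush F and 952 in crush M, and so was also low in sham F: its level went with the library. Without the members rich in C1q, Cd163 (-3.75, adjusted p = 0.53) and Mrc1 (-2.80, adjusted p = 0.2) missed the threshold and Pf4 was not tested, while Ifitm1, Ifitm2, Mgl2 and Rpl10 passed. For crush 3 genes passed, among them the lower Pf4 (-3.76 ± 0.59, adjusted p = 0.037) and Cd163 (-3.27 ± 0.54, adjusted p = 0.037), or 0.0382% of genes tested; none was called without the members rich in C1q, or when PSNL F, PSNL M, crush F or crush M was left out of the fit. Cd163 was at 114 CPM in sham F, 0 in PSNL F, 3.14 in PSNL M, 231 in sham M, 20.4 in crush F and 23.1 in crush M. Shams of both libraries lay above every injured sample for Cd163 and Mgl2.

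Whether a difference between the injuries was particular to these cells was tested as an interaction, the PSNL minus crush difference in members less that in all other cells of the same samples. Of 10835 genes, 2 were more and 12 less positive in members (0.129%). With DESeq2 size factors 4 were more and 8 less positive. In the other cells alone 654 genes were higher and 590 lower in PSNL (10.6% of 11738). Ier3, a stress-induced survival gene, was at 95.3 CPM in sham F, 167 in PSNL F, 217 in PSNL M, 325 in sham M, 145 in crush F and 100.4 in crush M in the members. In the other cells it was at 35.8 CPM in sham F, 747 in PSNL F, 1192 in PSNL M, 286 in sham M, 52.7 in crush F and 46.6 in crush M, which gave an interaction of -3.78 ± 0.42, adjusted p = 8.3e-05 on the log2 scale. The other cells of both injured PSNL samples were thus far above those of crush while the members differed little. Socs3, which dampens cytokine signalling, was at 76.2 CPM in sham F, 175 in PSNL F, 195 in PSNL M, 529 in sham M, 151 in crush F and 204 in crush M in the members. In the others it was at 0 CPM in sham F, 242 in PSNL F, 203 in PSNL M, 129 in sham M, 23.7 in crush F and 68.5 in crush M (-2.44 ± 0.40, adjusted p = 0.021).

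H2-DMb1, which encodes a beta chain of the same H2-DM catalyst, ran the opposite way. It was at 419 CPM in sham F, 815 in PSNL F, 826 in PSNL M, 788 in sham M, 424 in crush F and 623 in crush M in the members. In the others it was at 225 CPM in sham F, 125 in PSNL F, 106 in PSNL M, 354 in sham M, 339 in crush F and 342 in crush M (2.06 ± 0.35, adjusted p = 0.021), so that PSNL exceeded crush in the members and fell below it in the others. H2-DMb1 passed under 7 of the 12 alternatives and did not pass against the MHC class II high cells alone. Cells with the MHC class II minimum and no Ccr7 or Fscn1, members included, differed in share between the injuries. They were 17.5% of kept cells in PSNL F, 21.7% in PSNL M, 56.3% in crush F and 58.5% in crush M. The part of these shares in the result was not tested. Id2 gave -2.54 ± 0.47, adjusted p = 0.026, the inhibitory antibody receptor Fcgr2b -1.67 ± 0.31, adjusted p = 0.026, the granule proteoglycan Srgn -1.51 ± 0.29, adjusted p = 0.034 and the immediate early gene Jun -1.57 ± 0.32, adjusted p = 0.046. Against the MHC class II high cells alone 7 genes passed, all less positive in members (0.0699% of 10016), with Ier3 at -4.52 ± 0.53, adjusted p = 0.00069 and Socs3 at -2.41 ± 0.38, adjusted p = 0.015. The 14 calls fell to 1 without PSNL M or without crush M and to 5 without PSNL F or without crush F, and Ier3 passed under all 12 alternatives. The other cells hold the neutrophil-like barcodes, which differ in share between the libraries, and without these 2 genes were more and 22 less positive.

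At 15 weeks no gene differed between PSNL and crush within the cells of the rule: 0 of 7853 passed in edgeR (0%), while 447 (5.69%) had an unadjusted p under 0.05. The other cells gave 0 of 11738 as well, with 620 (5.28%) at an unadjusted p under 0.05. Ifitm2 had 369, 537 and 609 CPM and Mgl2 469, 736 and 1056 CPM as lowest, median and highest of the 7 samples, with PSNL and crush values intermixed.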

How the data were processed

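Droplet single-cell libraries of sorted nerve myeloid cells were analysed from the UMI counts that the authors deposited as gene-by-barcode matrices, made with Cell Ranger on mm10 (GRCm38). The submitters' processing notes name Cell Ranger 6.0.0 and Seurat 5.1.0, and the matrix headers give 6.0.0 at 1 week and 7.0.0 at 15 weeks. Genes were joined by identifier (30406 shared by both times). Hashtag counts in the same matrices gave each barcode its sample, with a threshold at the valley of each hashtag's distribution and exactly 1 hashtag above it; a 4th hashtag of the late crush library, which no label assigns, was not used. Xist and Ddx3y followed the labelled sex of every hashtag sample. Depth per library is given with the samples, and intervals cover counting error only.

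Counts of members, other kept cells and MHC class II high cells were summed per hashtag sample and, for samples with at least 10 member cells, tested with edgeR 4.0.16 (quasi-likelihood, TMM, filterByExpr, Benjamini-Hochberg adjustment at 0.05), with hashtag sample as a block where classes of 1 sample were compared. The steps were tested on simulated data. Shares were compared by two-sided exact permutation tests over samples (scipy 1.17.1). In the main comparisons no barcode was left out for its doublet score, while barcodes with several hashtags did not enter those between samples. Scrublet, run through scanpy 1.11.5, called 4 barcodes in all and so had not worked. Its top 6% of scores and barcodes with several hashtags served as checks. Members and gene lists (13 of cell type markers, 15 of functions) were chosen with earlier results of these data known. Genes could be named if they were in the rule, the markers or the lists, or were among the 15 largest rises or falls of a comparison with at least 50 CPM and no overlap between groups, or, at 1 week, the 30 highest ratios among genes in at least 20% of members. Alternatives were DESeq2 1.42.0, DESeq2 size factors, no filter, HTODemux of Seurat 5.3.0, other minimums, thinning to 3000 UMIs, sex as a block, 1-week samples alone and leaving out each sample. After seeing the data, alternatives without neutrophil-like barcodes, without members with 10 or more C1q UMIs, with barcodes of several hashtags given to the highest, and with the MHC class II high cells as reference were added. Promoters were read from RefSeq (GRCm38.p6). Single values of a few listed genes are not reported here.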

Additional observations from a re-analysis of the deposited data

Results flagged for a closer look

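In 3 of the 35 groups of 4 samples tested, a sample stood apart from the others by Dixon's criterion, which chance alone meets in about 1 of 20 groups. All were PSNL samples at 15 weeks, the only injury and time with 4 hashtag samples. Gcnt2 was at 27.1 CPM in the cells of the rule of PSNL F1, Rapgef5 at 15.0 CPM in PSNL M2 and Pmepa1 at 6.78 CPM in PSNL F1. The cells of PSNL F1 numbered 16, the fewest of the late samples.

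The PSNL minus crush difference at 1 week differed between members and the other cells for 14 genes, by the edgeR interaction on the log2 scale. It was more positive in the members for H2-DMb1 (2.06) and Padi2 (3.26). It was less positive for Ier3 (-3.78), Pf4 (-5.33), Abcc1 (-3.16), Cyb5r3 (-2.55), Id2 (-2.54), Socs3 (-2.44), Gsn (-1.78), Fcgr2b (-1.67), Jun (-1.57), Srgn (-1.51), Samd1 (-9.05) and Gm5483 (-11.36). The last 2 were at 0 in the members of PSNL F and PSNL M, so their fitted values depend on the prior count and are no bound. Gm5483 was above 0 only in the members of crush M, at 19.55 CPM.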

How the results depend on the processing

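Shares, Cd209a levels and both 15-week comparisons kept their direction and their side of the threshold under the alternatives run for them. For shares and Cd209a levels in tests of 2 samples against 2, 3 or 4, that side was fixed in advance. So few samples allow no p under 0.05 in the exact permutation test. The alternatives of the 15-week comparisons included fits with no replicate block. These called 3093 genes against other cells and 2422 against MHC class II high cells, in place of 3240 and 2635 with the block. The 30 genes named for each 15-week comparison passed under every alternative that gave them a value. Cd209a is among the 30 in both, and as a gene of the rule its pass was fixed in advance. The difference in share between 1 and 15 weeks was 2.91 to 10.6 points when samples were left out in turn, lowest without crush M. The counts within members at 1 week moved by over 1.5 times. For PSNL against crush, 44 genes became 97 (63 higher) with DESeq2, 226 without the filter, 19 without the top doublet scores and 4 to 39 with a sample left out; DESeq2 size factors gave 22 higher and 21 lower in place of 18 and 26. For crush against sham, 3 became 16 with DESeq2, 97 without the filter, and 0 without the top doublet scores (577 at an unadjusted p under 0.05), with 1 UMI of Cd209a (655), without members rich in C1q (694) and with a PSNL or crush sample left out (402 to 652). For PSNL against sham, 7 became 30 with DESeq2, 93 without the filter, 13 with HTODemux, 13 with 1 UMI of Cd209a, 4 without members rich in C1q and 3 to 8 with a sample left out. The 14 interaction calls became 117 without the filter, 102 with 1-week samples alone, 52 with HTODemux, 7 against MHC class II high cells, 24 without neutrophil-like barcodes and 1 to 14 with a sample left out; DESeq2 size factors gave 4 higher and 8 lower in place of 2 and 12 and moved the median of all genes from -0.23 to -0.08. The causes were not tested. A minimum of 20 member cells could not be fitted for sham, whose only sample had 18. No single value changed sign, but the balance of higher and lower PSNL against crush calls turned as given. Depth limits the early comparisons: sham F had 6 members and sham M 18. At 1 week the hashtag samples of PSNL and crush share no replicate number, and sex as a block gave 31 calls for PSNL against crush.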
